A study of Canis lupus familiaris with 34 samples.

Results

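The chemokines and chemokine receptors were examined in mitral valves of 34 Cavalier King Charles Spaniels. Members were found by gene symbol among the 23768 features of the deposited count table. Symbols of the CC, CXC, CX3C and XC ligands, of their receptors and of the 4 atypical receptors were kept, and where a symbol was listed with a canine RefSeq feature and a human alignment the canine feature was used. This gave 57 members, of which 35 were ligands, 18 were receptors and 4 were atypical receptors. The canine annotation supplied 31 of them, and human XenoRefSeq genes aligned to the dog genome supplied 26. Of these, 53 had 100 or more counts in total and were tested. The remaining members were CCL20 with 64 counts, CCR9 with 54, CCL28 with 2 and CCL18 with 0.

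The valves came from privately owned dogs of about 10 years of age, collected at elective euthanasia, and bulk RNA from each valve was sequenced once. The 10y-noCHF group held 19 dogs (10 females and 9 males) without congestive heart failure (CHF). Per the methods of the study nearly all of them had preclinical myxomatous mitral valve disease (MMVD), so the group is not one of healthy valves. The 10y-MMVD-CHF group held 15 dogs (6 females and 9 males) in which MMVD had progressed to CHF. Disease stage, exact age and treatment of single dogs were not used here. RNA was extracted from valve tissue without separation of cell types, and the 10 markers of valve interstitial cells summed to between 14200 and 38710 CPM (counts scaled to library size) in all dogs. Total counts per dog ranged from 46185256 to 82361245.

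Chemokines are small secreted proteins that bind G protein-coupled receptors on leukocytes and direct their migration. Ligands held on endothelium and matrix arrest rolling leukocytes, and CCL2 with CCR2, CX3CL1 with CX3CR1 and the CXCR2 ligands are known for the recruitment of monocytes and neutrophils. Other ligands, such as CXCL12, CCL19 and CCL21, are made by stromal or lymphatic cells without inflammation. Atypical receptors bind chemokines without the usual G protein signal and remove or transport them. In bulk tissue, fewer cells of a type and less RNA per cell cannot be told apart.

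The members differ in how surely a count belongs to the named gene, because a read was counted on every feature that it overlapped. In the cluster of monocyte chemoattractants on chromosome 9 (canFam4), the canine features of CCL13, CCL8, CCL7 and CCL2 are separate sets of exons between chr9:38907307-38978526. The human alignments of CCL13 and CCL8 run across the cluster as single blocks of 71699 and 61356 bases. They held 501995 and 471006 counts, against 17171 and 7477 counts on the canine exons of the same genes, and both blocks cover CCL2 with its 447712 counts. The CCL11 feature (chr9:38947889-38964680) contains no RefSeq gene other than CCL7, and its 4728 counts compare with 4720 on the human alignment of CCL7. Its values are therefore printed as those of the CCL11 feature.

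On chromosome 13 the features of CXCL1, CXCL2 and CXCL3 overlap one another, lie inside the MTHFD2L feature and hold only RefSeq genes without a chemokine symbol (chr13:63597549-63707512). CXCL8, the neutrophil attractant, has its own canine exons on the same chromosome (chr13:63485537-63488849), also inside MTHFD2L. The CCL15 feature spans 31514 bases (chr9:37700912-37732425) that hold CCL23 and a gene without a chemokine symbol, and collected 516930 counts. CXCR5 shares 1535 of its 4074 bases with BCL9L (chr5:14945562-14949635). The whole of ACKR4 lies in ACAD11, and CXCR6 lies in FYCO1. XCL1 and XCL2 are 1 interval with the same 117 counts in all. The human alignment of CXCR2 lies on CXCR1, where it held 305 counts against 311, so the canine CXCR2 feature with 821 counts was the separate one. The reads of these overlapping features could not be separated, and the counting used no strand.

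**Figure D1:**
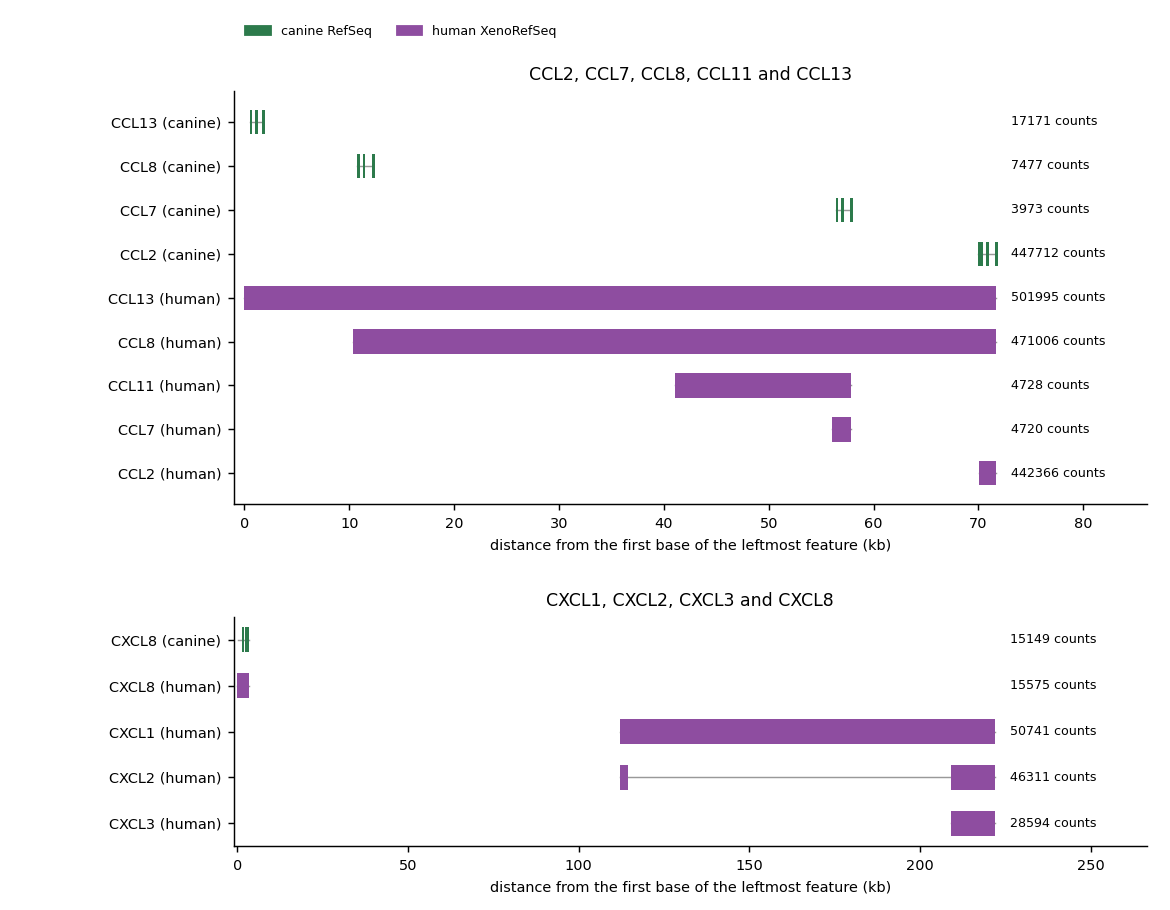
Features of 2 chemokine clusters drawn as boxes against distance in kb from the first base of the leftmost feature, with canine RefSeq features in green, human alignments in purple and the total counts over 34 dogs at the right. The human CCL13 and CCL8 blocks reach across CCL7 and CCL2, and CXCL1, CXCL2 and CXCL3 overlap.

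CCL2, the main monocyte chemoattractant, had the highest level per kb of the ligands with a canine feature. Levels between genes are given as CPM per kb of feature, where CPM are counts scaled to the library size with TMM factors. The human alignments can include introns in their length, which lowers this value, so values of human alignments are not comparable with those of canine features. CCL2 (chr9:38976779-38978526) ranged from 77.1 to 621 CPM per kb with a median of 341. CCL21, a ligand of CCR7 made by lymphatic endothelium, followed with a median of 32 CPM per kb, a lowest value of 0.123 and a highest of 105. The medians of CCL13 (23.1) and CCL24 (22.2), ligands of CCR2 and CCR3, were close to each other and their ranges overlapped. CX3CL1, the membrane-bound ligand on endothelium, had a median of 15 CPM per kb, and CCL8, a further CCR2 ligand, had 10.4. The median of CCL2 was above the highest dog of each of the other 5, of which CCL24 reached furthest with 230.5 CPM per kb. The lowest dog for CCL24 had 2.41 CPM per kb.

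Several ligands were close to absent. CCL26, an eotaxin, had a median of 0 and was counted in 5 of 34 dogs, with 78 of its 156 counts in 1 dog. XCL1 and CXCL11 also had medians of 0 counts, as did the receptor CCR8. Of the 53 tested members, 19 had at least 1 dog without a count, and 14 had a median under 10 counts. Small differences in these members were not detectable at this depth.

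CXCR5, a human alignment, had a median of 9.17 CPM per kb, which includes reads on the bases shared with BCL9L. The receptor marks follicular lymphocytes, and the B cell gene MS4A1 had a median of 0.0270 CPM. CCR1, a receptor for CCL3 and CCL5 on monocytes, had a median of 7.09 CPM per kb and a range of 1.99 to 10.3. CXCR4, the receptor of CXCL12, had a median of 6.67 and a range of 2.41 to 11.7. CX3CR1, found on patrolling monocytes and resident macrophages, had a median of 5.50 and a range of 0.752 to 14 CPM per kb. The ranges of CCR1, CXCR4 and CX3CR1 overlapped, so their order was within the spread between dogs.

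ACKR3, which scavenges CXCL12, had a median of 44.3 CPM per kb and a range of 17.1 to 68.4. ACKR1, which carries chemokines across venular endothelium and is also on red blood cells, had a median of 3.49 and a range of 1.04 to 10.9. The lowest ACKR3 value was above the highest values of CCR1, CXCR4 and CX3CR1, which are also canine features and reached 14 CPM per kb at most. ACKR1 and CXCR5 are human alignments. The plot of levels shows tested members by role.

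**Figure D2:**
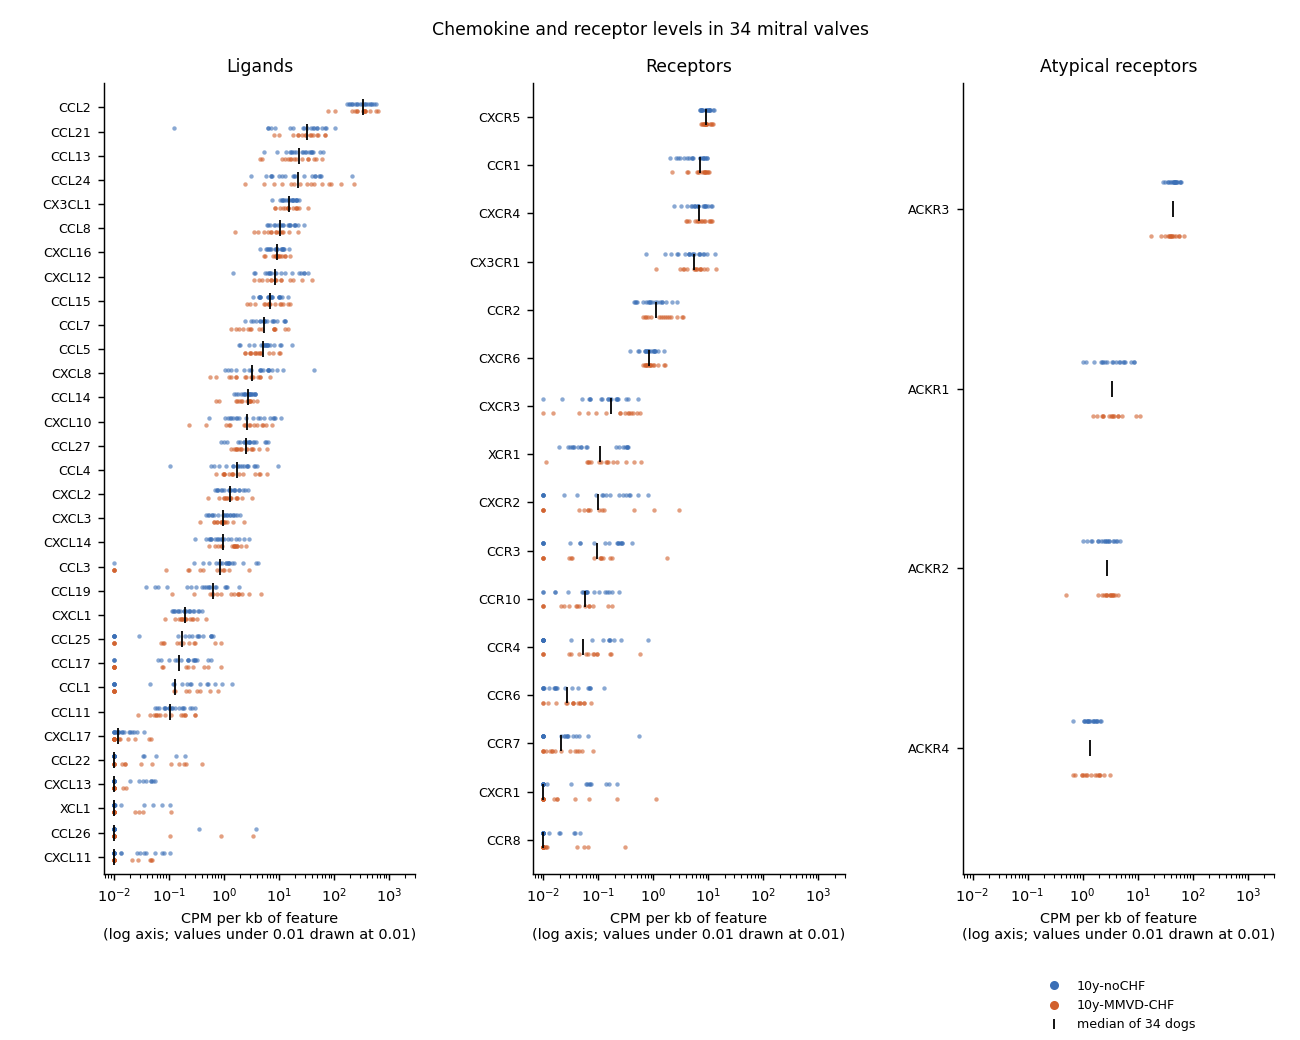
Level of tested members in each of 34 dogs as CPM per kb on a log axis, split into ligands, receptors and atypical receptors and ordered by median (black tick), with 10y-noCHF dogs in blue and 10y-MMVD-CHF dogs in orange. CCL2 and ACKR3 lie at the top of their panels with medians of 341 and 44.3, and the colours overlap in every row.

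Single dogs set the top of many members. CAV743, a 10y-noCHF male, was the highest dog for 11 of the 53 tested members, among them CCL5, CCL4, CCL3, CCL8, CCR7 and CXCL8. It also had the highest mean of the lymphocyte markers (1.69 on the log2 CPM scale) and the highest summed macrophage markers (2216 CPM). The highest macrophage mean was that of CAV1784 (6.27). In summed lymphocyte markers CAV743 ranked 4 (235 CPM), and CAV576 was highest (464 CPM). CAV614, a 10y-MMVD-CHF male, was the highest dog for 9 members. CXCR1 and CXCR2, the CXCL8 receptors of neutrophils, reached 150 and 287 counts in CAV614 against medians of 1.5 and 8. In the same dog the 11 neutrophil markers summed to 144 CPM, against a highest sum of 42.1 in the 10y-noCHF group, and the 9 red blood cell markers summed to 2177 CPM against a highest of 522 there. The part of these cells in the CXCR1 and CXCR2 values was not tested. CCL22, a ligand of CCR4, had 128 counts in CAV1519 against a median of 2, and CCR7 had 399 counts in CAV743 against a median of 15.

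The first comparison asked which members differed between dogs with and without CHF. None of the 53 tested members passed a false discovery rate (FDR) of 0.1 in edgeR's quasi-likelihood test with sex in the model, against 0.118% of all 19568 features tested. DESeq2 and limma voom also called 0 members. An unadjusted p below 0.05 was reached by 5 members (9.43%), against 6.31% of all features, and by 6 members in DESeq2 and 8 in limma voom. For DESeq2 and limma voom the share of all features at that p was not computed, here or for sex and the interaction below. The groups overlapped in all 53 members, and non-overlapping groups were found in 0% of all features. The 6 members with the smallest p follow, none of which passed.

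CCL19, the second ligand of CCR7, had the smallest p. It ranged from 0.0121 to 0.570 CPM in the 10y-noCHF dogs (median 0.147). Its range in the 10y-MMVD-CHF dogs was 0.0350 to 1.45 CPM (median 0.408). The log2 difference was 1.41 (SE 0.44, edgeR FDR 0.427), and 13 of 15 CHF dogs exceeded the median of the other group. Counts were low, with a median of 11 per dog. On the longer human alignment, which held 2343 counts against 632, the difference was 0.47.

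CXCL8 ranged from 1.49 to 61.5 CPM in the 10y-noCHF dogs with a median of 6.82. The range was 0.788 to 9.91 CPM in the 10y-MMVD-CHF dogs (median 3.64), of which 14 of 15 lay below the 10y-noCHF median. The log2 difference was -1.21 (SE 0.40, edgeR FDR 0.480), and without CAV743, the highest dog, it was -0.79. With the mean level of 15 macrophage markers added to the model, CXCL8 was the 1 member called, with a log2 difference of -1.51 and an edgeR FDR of 0.0333. That fit called 42 of all 19568 features. Without CAV743 the CXCL8 difference in that fit was -1.23 with an FDR of 0.0927. With a lymphocyte marker mean added instead, the CXCL8 difference was -0.95 and 0 members were called. With a cardiomyocyte marker mean added, 0 members were called too.

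CXCL13, the B cell attractant, was counted at a median of 2 per dog. It ranged from 0 to 0.333 CPM in the 10y-noCHF dogs and from 0 to 0.0990 CPM in the 10y-MMVD-CHF dogs, with a log2 difference of -2.02 (SE 0.79, edgeR FDR 0.635). CCL8 ranged from 1.82 to 8.64 CPM in the 10y-noCHF dogs (median 3.63) and from 0.492 to 6.81 CPM in the 10y-MMVD-CHF dogs, whose median was 2.67. Its log2 difference was -0.61 (SE 0.25, edgeR FDR 0.694), and 13 of 15 CHF dogs were below the 10y-noCHF median. On the human alignment that spans CCL2 the CCL8 difference was -0.07.

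CCR2, the receptor of CCL2 on monocytes, ranged from 3.49 to 21.2 CPM with a median of 6.86 in the 10y-noCHF dogs, and from 5.0 to 27 CPM in the 10y-MMVD-CHF dogs, whose median was 11.7. Of these, 11 of 15 lay above the 10y-noCHF median. The log2 difference was 0.58 (SE 0.25, edgeR FDR 0.739). With the macrophage marker mean in the model it was 0.32. CCL22 ranged from 0 to 0.868 CPM in the 10y-noCHF dogs and from 0 to 1.76 CPM in the 10y-MMVD-CHF dogs, with a log2 difference of 1.70 (SE 0.84, edgeR FDR 0.787). Without CAV1519, which held 128 of its 492 counts, the difference was 1.22, and without CAV743 it was 2.41.

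**Figure D3:**
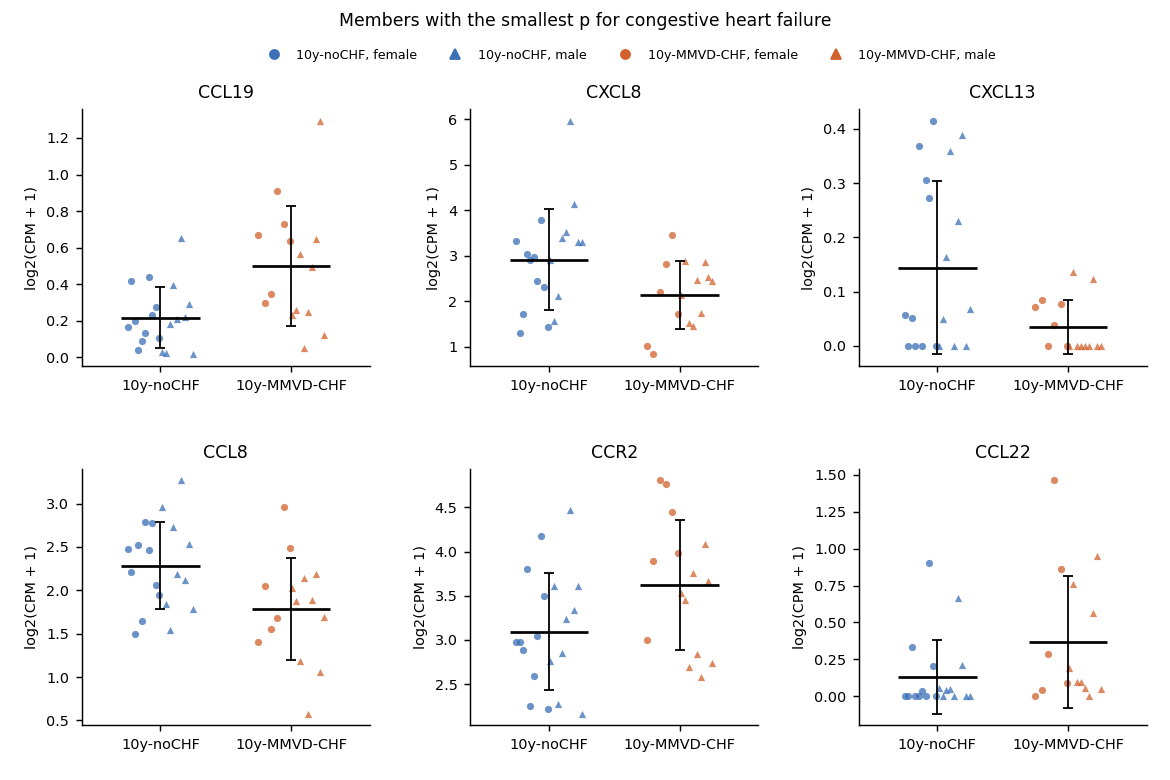
Levels as log2(CPM + 1) of the 6 members with the smallest p for CHF, 1 point per dog (circles female, triangles male), with 10y-noCHF in blue and 10y-MMVD-CHF in orange; the black line is the group mean and the bar 1 SD. The groups overlap in all 6 panels, and a single 10y-noCHF male lies far above the others for CXCL8 (61.5 CPM).

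For 4 abundant members the log2 difference was -0.06 (SE 0.22) for CCL2, 0.06 (SE 0.16) for CX3CL1, -0.13 (SE 0.13) for ACKR3 and -0.04 (SE 0.37) for CXCL12. By role, 15 of the 17 tested receptors and 9 of the 32 tested ligands had a log2 difference above 0, with medians of 0.18 and -0.17. Among all features 52.6% were above 0, with a median of 0.01. With the macrophage marker mean in the model, 7 of 17 receptors and 7 of 32 ligands were above 0. The split also moved with the tool, at 16 receptors and 9 ligands with DESeq2 and 12 and 12 with limma voom. Without CAV614 or without CAV1872, 12 of the 17 receptors were above 0. These counts describe direction alone, since 0 members passed the test.

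The marker means themselves were compared between the groups. The macrophage mean was 5.68 ± 0.385 (SD, 15 dogs) in the 10y-MMVD-CHF group and 5.41 ± 0.483 (SD, 19 dogs) in the 10y-noCHF group on the log2 CPM scale (two-sided permutation test within sex, p = 0.109, adjusted over 5 means p = 0.273). The immediate-early mean differed by -0.26, CHF minus noCHF (p = 0.0365, adjusted p = 0.182). The lymphocyte mean differed by -0.09 (adjusted p = 0.743), the endothelial mean by 0.11 (adjusted p = 0.385) and the cardiomyocyte mean by 0.41 (adjusted p = 0.743).

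Differences between females and males were read from the same fit. No member passed (0 of 53, against 0.143% of all features), and 1 member had an unadjusted p below 0.05 (1.89%, against 2.98%). That member was CCR8, a receptor of regulatory T cells, with mean levels of 0.182 CPM in females and 0.0416 CPM in males and a log2 difference of 1.84 (SE 0.88, edgeR FDR 0.9997). It was at 0 in 19 of 34 dogs, and without CAV1872, a female with 118 of its 249 counts, the difference was 1.07. DESeq2 and limma voom also called 0 members for sex, with 1 and 4 at an unadjusted p below 0.05. The female minus male log2 difference was -0.54 (SE 0.28) for ACKR1 and -0.75 (SE 0.39) for CXCL8, and neither passed. Without CAV743 the CXCL8 value was -0.31.

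Whether the CHF difference itself differed between the sexes was tested with an interaction term. It was called for 0 members, and for 0% of all features. DESeq2 and limma voom called 0 members too, with 6 and 9 at an unadjusted p below 0.05. An unadjusted p below 0.05 was reached by 5 members (9.43%, against 6.01%), which are named here after their values were seen: CCL26, CCR7, CCR2, CCR4 and CCL24. The interaction for CCR2 was 1.14 on the log2 scale (SE 0.48, edgeR FDR 0.815), for CCR7 3.11 (SE 1.14), for CCR4 3.30 (SE 1.49) and for CCL24 -2.33 (SE 1.06). The value of CCL26 rests on 5 dogs with counts. Leaving out single dogs, the count at an unadjusted p below 0.05 ran from 2 without CAV743 to 10 without CAV1047.

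The members varied widely between dogs, and the next comparison asked which of them moved with the level of cell type markers. For each of 5 marker lists the mean log2 CPM was put into the model beside sex and CHF group, and slopes are given as log2 change per SD of that mean over the 34 dogs. With the macrophage markers, 23 of 53 members rose (43.4%, against 13.8% of all features) and 1 fell (1.89%, against 17.3%). The median slope was 0.39 over the tested members and 0.00 over all features. By role, the calls were 17 of 32 ligands, 7 of 17 receptors and 0 of 4 atypical receptors.

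CCL5, which attracts T cells and monocytes, had a slope of 0.60 (SE 0.09, edgeR FDR 1.9e-05) and its receptor CCR1 had 0.55 (SE 0.08). CXCL8 had 0.84 (SE 0.15) and CXCL2 0.43 (SE 0.09). The CCR2 ligands CCL2 (0.40), CCL7 (0.58), CCL8 (0.46) and CCL13 (0.59) were all called, as was CCR2 (0.47). CX3CL1 (0.27) and CX3CR1 (0.57) were called as well, as were CCL4 (0.72), CCL14 (0.26), CXCL1 (0.39), CXCL3 (0.36), CXCL14 (0.35), CXCL16 (0.29), CXCR3 (0.62), CXCR4 (0.34), CCR7 (1.06) and the CCL11 and CCL15 features (0.59 and 0.42). CXCL12 was the member that fell, by 0.61 (SE 0.15, edgeR FDR 0.00356). Within the 10y-noCHF dogs alone 21 members were called, and within the 10y-MMVD-CHF dogs alone 3, namely CCL5, CCR1 and CXCR4. Over all features these fits called 17.8% and 3.36%. CCR7 and CXCL14 were not called without CAV743, CCL14 and CXCR3 without CAV1047, and CXCR3 and CX3CL1 with the cardiomyocyte mean added. Whether the slopes differ between the groups was not tested.

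With the lymphocyte markers, 23 of 53 members rose (43.4%, against 4.44% of all features) and 0 fell. Calls in either direction made up 7.14% of all features. The member calls held 13 of 17 receptors and 9 of 32 ligands, and 14 members were called with both the macrophage and the lymphocyte mean. The share of all features called with both means, or with 1 of them alone, was not computed. XCR1, the receptor of XCL1 on cross-presenting dendritic cells, had a slope of 0.95 (SE 0.19, edgeR FDR 0.00183), and CCR7, which guides T cells and dendritic cells to lymph nodes, had 1.01 (SE 0.20). Without CAV743 the CCR7 slope was 0.59 and no longer passed (FDR 0.136). CCL5 had 0.44, CCL4 had 0.61 and CCR2 had 0.46. In all, 9 members were called here and not with the macrophage markers, but the difference between the 2 slopes was not tested. They include the T cell receptors CCR4 (1.34) and CCR8 (1.33) and the mucosal receptor CCR6 (0.81). The neutrophil receptors CXCR1 (1.18) and CXCR2 (1.07), the CCL24 receptor CCR3 (1.27), CCL3 (0.78), XCR1 and ACKR1 are the others. CCR4 and CCR8 had medians of 4 and 0 counts, and CXCR1, CXCR2 and CCR3 had medians of 1.5, 8 and 7. CAV1872, with a lymphocyte mean of 1.58, held 118 of 249 CCR8 counts and 46 of 239 CCR4 counts. CAV743, with a mean of 1.69, held 51 of the CCR4 counts. CAV1872 was not left out of the marker mean fits. The 1 atypical receptor called was ACKR1 (0.37), which was not called without CAV614 or without CAV1047. The summed lymphocyte markers were low, at a median of 90.2 CPM in the 10y-noCHF dogs and 51.1 CPM in the 10y-MMVD-CHF dogs.

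The cardiomyocyte markers ranged widely in these valves, from a sum of 56.6 to 59330 CPM, the latter in CAV1047, a 10y-MMVD-CHF female. CXCL12, the stromal ligand of CXCR4, ranged from 1.24 CPM in CAV749, the dog with the lowest cardiomyocyte mean, to 33.4 CPM in CAV1047, the dog with the highest. It rose with the cardiomyocyte mean by 0.91 per SD (SE 0.10, edgeR FDR 7.0e-09), with 0.91 in the 10y-noCHF dogs alone and 0.92 in the 10y-MMVD-CHF dogs alone. Its scavenger ACKR3 rose by 0.18 (SE 0.06) and XCL1 by 1.34 (SE 0.52) with a median of 0 counts. CX3CL1, CXCL16, CXCL1, CXCL2, CXCL3 and CXCR5 fell, by 0.26 for CX3CL1 (SE 0.07) and 0.16 for CXCR5 (SE 0.03). In all 3 members rose (5.66%, against 18.9% of all features) and 6 fell (11.3%, against 18.2%), so the share called was below the background. Without CAV743, 15 members were called (28.3%, against 38.7% of all features in that fit). CXCL1 and CXCL2 were not called without CAV614 or without CAV1047, and CXCL3 was not called without CAV614. The part of heart muscle in these slopes was not tested.

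The endothelial markers gave 1 call, CXCR5, which fell by 0.12 per SD (SE 0.04, edgeR FDR 0.0966; 1.89% of members, against 3.5% of all features). The shared bases with BCL9L apply here too. The next by p were CCR7 (-0.90), CXCL16 (-0.18), ACKR1 (0.31) and ACKR4 (0.19), which did not pass. Without CAV743 the CCR7 slope was -0.34, and without CAV1047 CCR7 was called. The immediate-early genes, which respond within minutes to stress and handling, gave 0 calls (against 0.128% of all features) and 0 in limma voom (against 0.148%). At an unadjusted p below 0.05 there were 9 members, and the share of all features at that p was not computed for this mean. The smallest p was that of CCL26, with a slope of 1.77 (SE 0.44, edgeR FDR 0.173) that rests on 5 dogs with counts. CXCL10 (-0.64), CCL24 (0.61), CCR3 (0.82) and CCL2 (0.26) followed and did not pass.

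**Figure D4:**
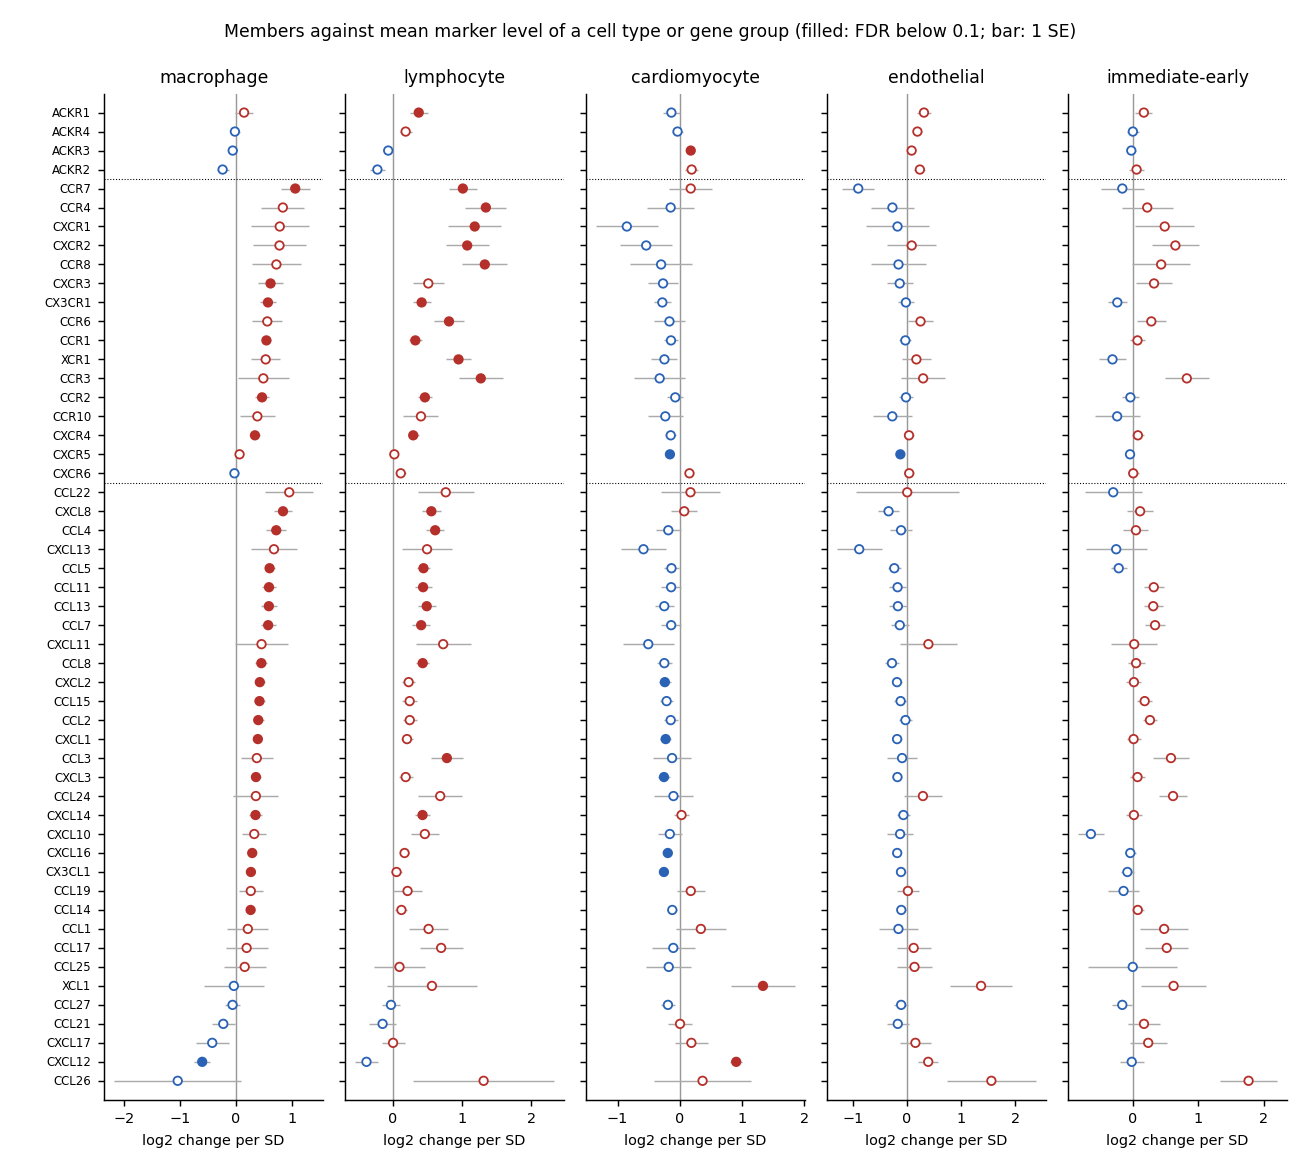
Slope of tested members as log2 change per SD of the mean of 5 marker lists, with 1 SE as bar, red above 0 and blue below, filled where the edgeR FDR was below 0.1; dotted lines part atypical receptors, receptors and ligands. All but 1 of the filled points in the macrophage panel and all of those in the lymphocyte panel are red. CXCL12 is the filled blue point for macrophage markers (-0.61) and lies at 0.91 for cardiomyocyte markers.

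Whether a ligand and its receptor varied together over dogs was tested for 35 known pairs. The means of the 4 groups of CHF status and sex were removed from log2(CPM + 1), Pearson's r and Spearman's rho were tested by permutation within those groups (100000 resamples, two-sided), and a pair was called when both p-values, adjusted over the 35 pairs, were below 0.1. This held for 15 pairs (42.9%), of which 14 were positive. Of the 637 other combinations of a tested ligand with a tested receptor, 19.6% were called at the same threshold, with p-values adjusted over those 637. Because the adjustment was over different sets, the shares of calls are not strictly like for like. The median rho was 0.29 over the listed pairs and 0.18 over the others. The other combinations were not screened for further known binding.

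CX3CL1 and CX3CR1 had a rho of 0.72 over 34 dogs (Pearson's r 0.73). The permutation p was 2e-05 for rho and 1e-05 for r, the smallest that the permutations can give (adjusted 0.00035 for both). Without the 2 dogs farthest from the CX3CL1 median r was 0.72. CCL2 and CCR2 had a rho of 0.67 (r 0.65, permutation p 7e-05 for both, adjusted 0.000817 and 0.0007), and r was 0.61 without 2 dogs. CX3CL1 with CX3CR1 and CCL2 with CCR2 were the pairs called in every alternative run, which include each CHF group alone and the removal of the macrophage or the cardiomyocyte mean. CCL5 with CCR1 (rho 0.56) was lost when the macrophage mean was removed, where rho was 0.03.

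The other CCR2 ligands CCL7 (rho 0.55), CCL13 (rho 0.53) and CCL8 (rho 0.41) were called with CCR2, and CCL3 was called with CCR1 (rho 0.41). CCL8 with CCR2 was not called when CAV614, CAV743 or CAV1047 was left out, and CCL3 with CCR1 was not called without CAV743 or without CAV1047. With the macrophage mean removed none of these 4 pairs was called. CCL24, an eosinophil attractant, was called with its receptor CCR3 (rho 0.42). CCR3 had a median of 7 counts, with 140 of its 382 counts in CAV1872. The rho of CCL24 with CCR3 was 0.73 in the 10y-noCHF dogs alone and 0.14 in the 10y-MMVD-CHF dogs alone, a difference that was not tested. CXCL8 was called with CXCR2 (rho 0.41) and CXCR1 (rho 0.31), whose medians were 8 and 1.5 counts, and neither was called without CAV743. Without CAV614 CXCL8 with CXCR1 was not called. CXCL12 and ACKR3 had a rho of 0.52, which was 0.20 and not called with the cardiomyocyte mean removed. CXCL12 and its signalling receptor CXCR4 had a rho of -0.36 that did not pass (adjusted permutation p for rho 0.105). The 1 negative call was CCL2 with ACKR2, a scavenger of CC ligands (rho -0.34, adjusted permutation p for rho 0.0945), which was not called without CAV614 or without CAV743.

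**Figure D5:**
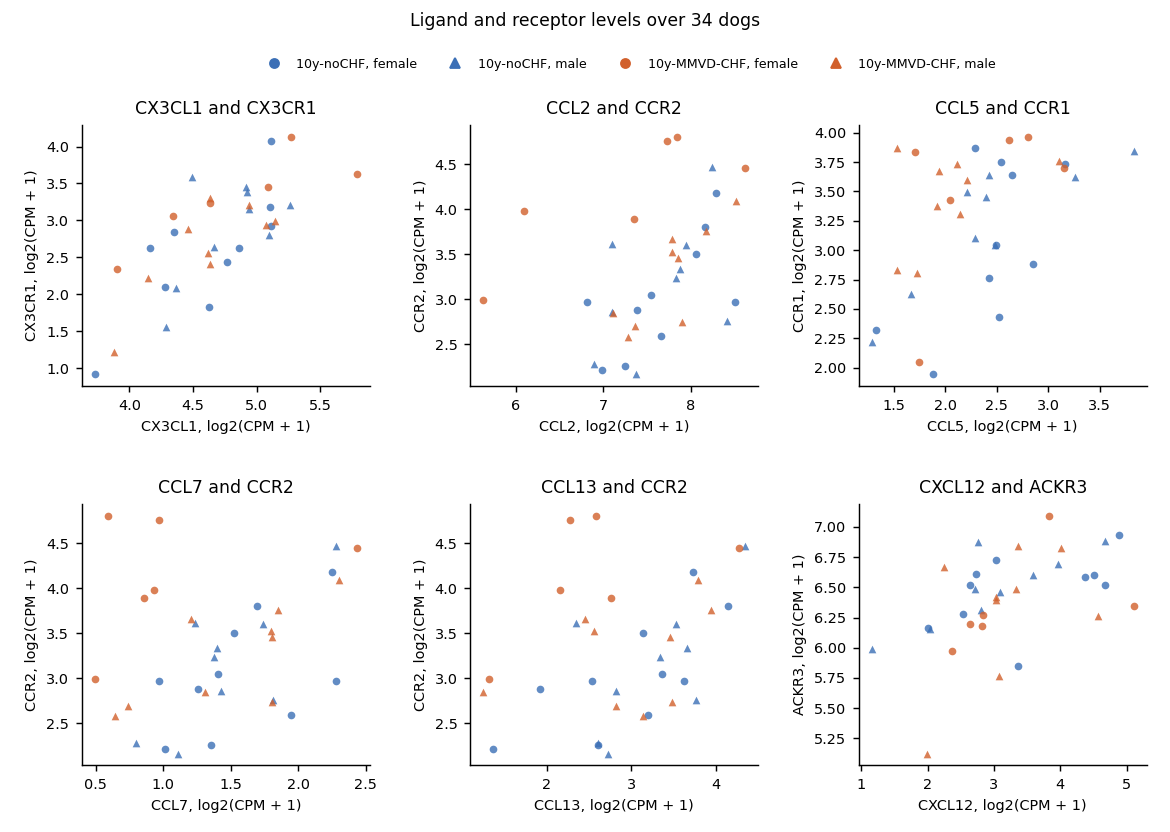
Levels as log2(CPM + 1) of 6 ligand and receptor pairs that were called, 1 point per dog (circles female, triangles male; blue 10y-noCHF, orange 10y-MMVD-CHF). Both colours rise together in the CX3CL1 panel, whose rho with CX3CR1 was 0.72.

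The genes around the chemokine system were read from 4 lists. None of 24 tested inducers of chemokines, 25 receptor signalling genes, 19 adhesion and arrest genes and 26 processing and retention genes passed for CHF, with median log2 differences of 0.02, 0.03, 0.06 and 0.00. At an unadjusted p below 0.05 there were 3, 0, 1 and 1 of them, where 6.31% of all features reached it. Among the inducers, IL6ST, the shared receptor chain of the IL-6 family, had a log2 difference of 0.30 (SE 0.09, edgeR FDR 0.400), and NFKBIA, the inhibitor induced by NF-kB, had -0.28 (SE 0.10, edgeR FDR 0.480). VCAM1, an adhesion molecule for monocytes and lymphocytes, had a difference of 0.40 (SE 0.19, edgeR FDR 0.779), and CCRL2, a chemokine-binding receptor relative, 0.39 (SE 0.18, edgeR FDR 0.778). The next by p in those lists were SELPLG, the selectin ligand of leukocytes (0.31), and EXT1, an enzyme of heparan sulfate synthesis (-0.14). Among the signalling genes the smallest p belonged to ELMO1 (-0.14) and PREX1 (0.16), both activators of Rac. VWF, a clotting factor of endothelium, was the 1 gene of the 5 marker lists that was called higher with CHF (1.40, edgeR FDR 0.0678), and FOSB, an immediate-early gene, the 1 called lower (-1.52, edgeR FDR 0.0289).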

How the data were processed

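The authors aligned paired reads of polyA RNA to canFam4 with STAR, and the deposited values are raw counts per feature from featureCounts 2.0.3. Per the file headers a read was counted on every feature it overlapped, without strand, and the 2 reads of a pair were counted separately. Of 35 count columns, 1 matched no sample of the labels and was not used. Members and gene lists were chosen with earlier results of these data known.

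The 19568 features holding 100 counts or more in total were tested with edgeR 4.0.16 in R 4.3.3 (quasi-likelihood, TMM, sex and group as terms, Benjamini-Hochberg over all features, FDR threshold 0.1). Marker means are mean log2 CPM with a prior count of 2. DESeq2 1.42.0 and limma 3.58.1 voom were alternatives, as were other normalizations and filters, 1 member per locus (54 loci), the human features and leaving out each dog (3 dogs for marker means and pairs). The scripts were tested on simulated data. Each dog was 1 library, so p-values rest on the spread between dogs. Named members were those passing a test, those with the smallest p for CHF (6), sex (3) and each marker mean (5), the highest levels per kb (6 ligands, 4 receptors, 2 atypical receptors), the 4 tested members with the largest ratio of highest to median dog, genes of called pairs and members sharing their place, and from each pathway list the 2 genes with the smallest p. Sequences were not used here, and results of some members, which stay in the counts, are not reported here.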

Additional observations from a re-analysis of the deposited data

How the results depend on the processing

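No member was called for CHF under the settings run without the macrophage marker mean, and none for sex or the interaction under any setting run, which include leaving out each of the 34 dogs in turn (0 in each). For marker means and pairs, CAV614, CAV743 and CAV1047 were left out in turn, chosen after seeing the data. With the macrophage mean added, 1 member (CXCL8) was called for CHF, and also 1 without each of CAV614, CAV743 and CAV1047. For the cardiomyocyte mean 3 members were called in the 10y-noCHF dogs alone (6.12%, against 21.4% of all features). In the 10y-MMVD-CHF dogs alone 8 were called (17.4%, against 24.9%). Without 1 of the 3 dogs 6 to 15 were called. These were 6 without CAV614 (11.3%, against 35.8%) and 15 without CAV743 (28.3%, against 38.7%). For the macrophage mean 3 were called in the 10y-MMVD-CHF dogs alone (6.52%, against 3.36%). For the lymphocyte mean 5 were called in the 10y-noCHF dogs alone and 15 in the 10y-MMVD-CHF dogs alone, where 46 members were tested, against 1.08% and 18.1% of all features in those fits. For the endothelial mean limma voom called 9 of 53 members, a share close to the 16.5% of all features called in that fit. In the 10y-noCHF dogs alone 3 were called (6.12%, against 4.12%). The count was 0 at an FDR of 0.05, in the 10y-MMVD-CHF dogs alone and with the cardiomyocyte mean added. It was 1 to 2 without 1 of the 3 dogs (2 without CAV1047, where 9.04% of all features were called). The cause of these changes in count was not tested. Of the pairs, 9 were called in the 10y-noCHF dogs alone, 2 in the 10y-MMVD-CHF dogs alone, 9 with the cardiomyocyte mean removed, 5 with the macrophage mean removed and 10 to 13 without 1 of the 3 dogs. Subsets hold fewer dogs than the full set, and the part of the number of dogs in these counts was not tested. Over all features, CHF calls numbered 23, against 64 with DESeq2, 9 at an FDR of 0.05, 13 without the sex term and 42 with the macrophage mean added. Over 49 named values and 800 comparisons with an alternative, 724 kept direction and side of the threshold, 68 lost it, 8 gained it and 0 reversed. No paired analysis was possible because each dog has a number of its own that no other dog shares.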

Other observations

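CCL21 and MMRN1, a gene of lymphatic endothelium, were both lowest in the same dog, CAV749, a 10y-noCHF male. CCL21 had 4 counts there against a median of 909.5, and MMRN1 was at 0.0258 CPM against a median of 15.5. The other lymphatic markers were present in that dog, with LYVE1, which macrophages also express, at 59.1 CPM, PROX1 at 12.2 CPM and RELN at 53.3 CPM. This was seen after the values were known, and its cause was not tested.

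The choice between the canine and the human feature changed the counts of some members by a large factor. Among the 26 of 29 members with both features and at least 100 canine counts, the median ratio of human to canine counts was 1.3, and 15 were within 1.5 times of each other. For CCL8 and CCL13 the ratio was 63.0 and 29.2.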
